A study of Mus musculus with 4 samples.

Results

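The 43 genes described here encode the machinery that licenses, starts and carries out DNA replication, together with the enzymes that supply its nucleotides, and they are 43 of the 31053 genes in the expression tables. They form a list by role, drawn up with earlier results of these data known: Orc1, Orc6, Cdc6, Cdt1 and Mcm2 to Mcm7 for licensing, Cdc45, Gins1 to Gins4 and Mcm10 for helicase activation, Pola1, Pola2, Prim1, Prim2, Pold1, Pold2, Pole and Pole2 for synthesis, Pcna and Rfc1 to Rfc5 for the sliding clamp, Rpa1 to Rpa3 for single-stranded DNA, Rrm1, Rrm2, Tyms, Tk1 and Dut for nucleotides, Fen1 and Lig1 for joining Okazaki fragments, and Ung, Rad51ap1 and Tipin for uracil removal, recombination and fork protection. The study profiled single mouse thymocytes from thymi under autonomy, in which a thymus keeps making T cells from the cells it already holds, and under turnover, in which incoming progenitors replace the resident cells. In both conditions the thymi were wild type, had been transplanted 28 days earlier, and gave thymocytes sorted, by the labels, from the DN3-DN4 stages, from immature single positive cells (ISP) and from double positive cells (DP). Each condition had 1 expression library and 1 library of T cell receptor (V(D)J) contigs, and the labels described neither the hosts nor the number of animals. With 1 library a condition no difference between autonomy and turnover can be tested, so ratios are given with 95% intervals that cover counting error only and describe these libraries.

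A cell replicates its DNA once per division in ordered steps. In G1 the origin recognition complex with CDC6 and CDT1 loads the MCM2-7 helicase onto origins, and at the start of S phase CDC45 and the GINS complex turn the loaded helicase on. Polymerase alpha with primase then makes the primers, polymerases delta and epsilon extend them around the PCNA clamp, and RPA covers the exposed single strands. Many of these genes are transcribed under E2F factors as cells pass from G1 into S. In the thymus, cells divide in bursts at the early double negative stages and again after a working T cell receptor beta (TRB) chain passes beta-selection, whereas most double positive cells are small and at rest.

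Barcodes with 1000 or more unique molecular identifiers (UMIs, which mark single captured RNA molecules) were kept as cells: 4414 in autonomy, with a median of 2430.5 UMIs, and 4227 in turnover, with a median of 2112. A cell counted as cycling when Mki67 and Top2a, a pair of proliferation genes that are not among the 43, gave 4 or more UMIs together. This gate held 212 autonomy cells, or 4.80% (4.19 to 5.48, exact binomial interval), and 578 turnover cells, or 13.7% (12.7 to 14.7). The share moved far beyond these intervals with the choice of cells, from 1.91% without the 4% of cells with the most UMIs to 6.18% with a minimum of 2000 UMIs in autonomy, and from 10.2% to 24.4% under the same choices in turnover. Another 129 autonomy cells and 164 turnover cells had 1 to 3 such UMIs, and 4073 and 3485 had none and are called non-cycling. Cycling cells had more UMIs, with medians of 15912 in autonomy and 16334 in turnover, and a gate at a fixed count favours cells with many UMIs. By Mki67 and Top2a, 12 autonomy and 37 turnover cells lay at 3 UMIs, just outside the gate, with 14 and 33 at 4, just inside it. The labelled cell types were in view: all 5 DN3-like markers and all 6 ISP/DP markers, among them Ptcra, Rag1 and Cd8a, were detected in both libraries, and haemoglobin genes were at 0. Transcripts of other cells were present at low levels and unevenly, the 8 macrophage markers summing to 137 CPM (UMIs of a gene per 1000000 UMIs of the same cells) in autonomy and 12.6 CPM in turnover, and the autonomy library held cells with Xist as well as cells with Y-linked transcripts. The libraries shared 29 barcodes.

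The promoter windows of 35 of the 43 genes were found in the RefSeq table for build GRCm38.p6, each running from 250 bases before to 50 bases after a transcript start. Both strands were searched for letters that resemble the core of an E2F site, namely TTTGGCG and, as its variants, TTTCCCG with TTTGCCG as well as the form TTTCGCG, and matches were allowed to overlap. Such matches were found in 18 of the 40 windows of these 35 genes, or 45%, against 6.70% of all 32851 windows in the table. The CCAAT box, the core of an NF-Y site, was found in 57.5% of the members' windows, against 37.4% of all windows. The windows of the 5 genes that stood highest in autonomy over turnover in cycling cells are shown here because the results below turn on them, 5′ to 3′ on the coding strand, with E2F-like matches in capitals.
Mcm2, chr6:88898731-88899030, minus strand: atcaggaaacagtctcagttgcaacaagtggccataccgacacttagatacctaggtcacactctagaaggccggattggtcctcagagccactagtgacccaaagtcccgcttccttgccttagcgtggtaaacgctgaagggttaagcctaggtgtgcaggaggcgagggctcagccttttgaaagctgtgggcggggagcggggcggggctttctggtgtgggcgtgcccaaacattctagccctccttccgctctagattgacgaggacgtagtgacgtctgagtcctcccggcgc
Mcm6, chr1:128359656-128359955, minus strand: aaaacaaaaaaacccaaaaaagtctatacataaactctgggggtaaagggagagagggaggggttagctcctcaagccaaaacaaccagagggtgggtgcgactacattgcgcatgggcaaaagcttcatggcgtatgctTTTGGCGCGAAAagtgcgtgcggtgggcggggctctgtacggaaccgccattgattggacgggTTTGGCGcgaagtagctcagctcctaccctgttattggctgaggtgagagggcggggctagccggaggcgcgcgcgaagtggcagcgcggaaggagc
Cdt1, chr8:122567765-122568064, plus strand: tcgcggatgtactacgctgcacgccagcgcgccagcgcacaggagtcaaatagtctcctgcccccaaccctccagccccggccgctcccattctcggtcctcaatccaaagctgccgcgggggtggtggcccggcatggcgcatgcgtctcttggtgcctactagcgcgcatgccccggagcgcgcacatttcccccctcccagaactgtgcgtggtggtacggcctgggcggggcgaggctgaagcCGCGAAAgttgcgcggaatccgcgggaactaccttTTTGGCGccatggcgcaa
Pold1, chr7:44548766-44549065, minus strand: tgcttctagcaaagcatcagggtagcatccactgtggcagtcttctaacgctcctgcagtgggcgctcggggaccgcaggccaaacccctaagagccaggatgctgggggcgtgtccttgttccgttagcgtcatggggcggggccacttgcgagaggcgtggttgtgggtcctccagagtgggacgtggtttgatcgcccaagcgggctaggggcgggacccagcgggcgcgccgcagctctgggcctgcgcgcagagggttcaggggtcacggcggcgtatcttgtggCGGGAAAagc
Ung, chr5:114130185-114130484, plus strand: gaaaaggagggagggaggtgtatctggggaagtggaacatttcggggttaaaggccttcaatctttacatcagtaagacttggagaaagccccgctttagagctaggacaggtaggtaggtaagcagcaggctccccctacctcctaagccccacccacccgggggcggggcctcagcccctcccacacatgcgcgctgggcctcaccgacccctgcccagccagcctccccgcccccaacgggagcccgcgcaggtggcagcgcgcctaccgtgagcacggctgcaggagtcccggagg
The Mcm6 window held 3 such matches, 2 of them overlapping, the Cdt1 window 2 and the Pold1 window 1. Those of Mcm2 and Ung held none of these letters. A match is a description of the letters and not a measured binding site.

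In cycling cells the 43 genes together were slightly higher in autonomy, and the excess lay mostly in the licensing genes. Their summed level was 10241.5 CPM in autonomy and 8879.7 CPM in turnover, a ratio of 1.15 (1.14 to 1.17). All 43 passed the minimum of 100 UMIs over both libraries, 33 had a ratio above 1, and 5 of them (Mcm2, Mcm6, Cdt1, Pold1 and Ung) were 1.5-fold or more higher while none was as much lower. Of all 7785 genes that passed, 20.1% were 1.5-fold or more higher and 3.1% lower, so the members' share of higher genes was below the background. Their median ratio of 1.13 stood beside 1.11 for all genes, a shift of 0.15 on the log2 scale. With edgeR's TMM factors in place of plain totals, which moved every ratio down by 0.18 on the log2 scale, the summed ratio was 1.02. On these factors 20 members lay above 1 and 23 below. Mcm2, Pold1 and Ung were the 3 past 1.5-fold and Rpa3 was the 1 member as much lower, beside 12.7% and 6.68% of all genes. The G2/M list of 52 mitotic genes, which holds no member, was at 13927 CPM in autonomy and 15087 CPM in turnover cycling cells, a ratio of 0.923 (0.914 to 0.932), so autonomy cycling cells carried fewer mitotic transcripts. Without the 4% of cells with the most UMIs, which left 81 autonomy and 416 turnover cycling cells, the summed ratio was 1.05. There Mcm2 (1.55-fold) and Pold1 (2.07-fold) were higher and Pole2 was lower, beside 27.2% and 5.87% of all genes. Mcm6 (1.28-fold), Cdt1 (1.45-fold) and Ung (1.38-fold) were under the limit. DN3-like markers summed to 671 CPM in autonomy and 208 CPM in turnover cycling cells, 4 of the 5 being 1.5-fold or more higher and 1 lower. The 5 markers of mature single positive cells summed to 193 CPM in autonomy and 82.1 CPM in turnover cycling cells, and the 8 macrophage markers to 29.7 and 3.12 CPM. The part of the DN3-like and mature markers in the result was not tested, and without cells with macrophage transcripts the summed ratio was 1.16.

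**Figure D1:**
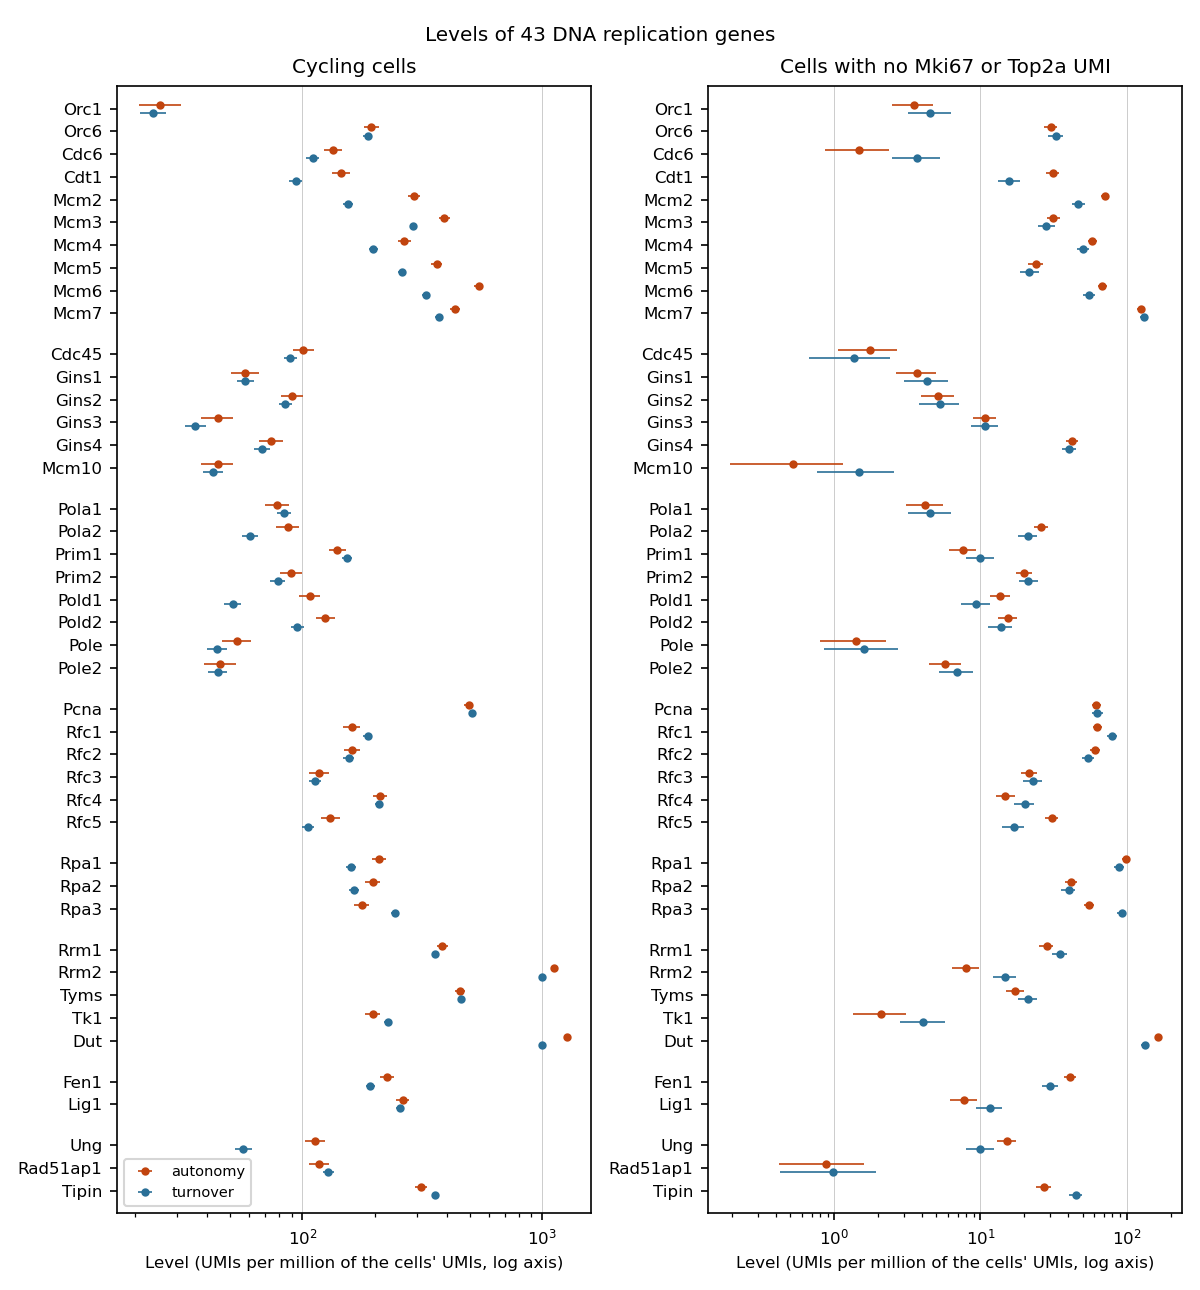
Level of each of the 43 genes in CPM (log axis), in cycling cells on the left and in cells with no Mki67 or Top2a UMI on the right, with autonomy in orange above turnover in blue and bars for exact Poisson 95% intervals of counting error. In cycling cells the licensing genes Mcm2 to Mcm6 sit apart between the libraries, as with Mcm2 at 292 CPM in autonomy and 156 CPM in turnover, while Pcna, Tyms and Lig1 nearly coincide.

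All 10 licensing genes had ratios above 1 in cycling cells, with a summed level of 2789 CPM in autonomy and 2015 CPM in turnover (ratio 1.38, 1.35 to 1.42), or 1.22-fold with 8 of the 10 above 1 on TMM factors. The helicase subunits Mcm2 to Mcm7 summed to 2291 CPM in autonomy and 1601 CPM in turnover, a ratio of 1.43 (1.39 to 1.47), and all 6 stayed above 1 on TMM factors at a summed 1.26-fold. Among the subunits the ratios were uneven although the 6 proteins act as one ring. Mcm2 was at 292 CPM in autonomy against 156 CPM in turnover, 1.88-fold (1.74 to 2.03). Mcm6 was at 545 CPM in autonomy and 327 CPM in turnover, 1.67-fold (1.58 to 1.76). Mcm3, Mcm4 and Mcm5 lay between 1.35-fold and 1.39-fold, with intervals that overlap one another, and Mcm7 was lowest at 433 CPM in autonomy and 370.0 CPM in turnover, 1.17-fold (1.10 to 1.24). The intervals of Mcm2, of Mcm6 and of Mcm7 did not overlap those of the other subunits, apart from Mcm2 and Mcm6, which overlapped narrowly. Cdt1, which brings the MCM ring to origins and is destroyed once S phase begins, was at 145 CPM in autonomy and 93.6 CPM in turnover, 1.55-fold (1.39 to 1.72). Cdc6, its partner ATPase, was at 135 CPM in autonomy against 110.2 CPM in turnover, 1.22-fold (1.10 to 1.36). The origin recognition subunits Orc1 (1.08-fold, 0.843 to 1.36) and Orc6 (1.04-fold, 0.953 to 1.13) had intervals that held 1.

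Helicase activators differed less, summing to 411 CPM in autonomy and 378 CPM in turnover (1.09-fold, 1.03 to 1.15, or 0.959-fold on TMM factors). Cdc45 was at 101 CPM in autonomy and 89.1 CPM in turnover, and the GINS subunits ran from 0.996-fold for Gins1 to 1.24-fold for Gins3. Mcm10, a scaffold that helps start the active helicase, was at 1.04-fold (0.869 to 1.25).

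Among the polymerase genes 1 stood out. Pold1, the catalytic subunit of polymerase delta, was at 107 CPM in autonomy and 51.1 CPM in turnover, 2.10-fold (1.84 to 2.39), the highest ratio of the 43. Its partner subunit Pold2 was at 124 CPM in autonomy and 95.04 CPM in turnover, 1.31-fold (1.17 to 1.46). The intervals of Pold1 and Pold2 did not overlap. In polymerase alpha, Pola2 was at 1.44-fold (1.26 to 1.64) while the catalytic Pola1 was at 0.937-fold (0.819 to 1.07), and the primase pair Prim1 (0.913-fold, 0.827 to 1.01) and Prim2 (1.14-fold, 1.0004 to 1.29) also lay on both sides of 1. Pole and Pole2 of polymerase epsilon were at 1.21-fold (1.02 to 1.43) and 1.02-fold (0.852 to 1.22). The group summed to 725 CPM in autonomy and 611 CPM in turnover (1.19-fold, or 1.05-fold on TMM factors).

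The clamp and its loaders did not differ between the libraries by the plain total, at 1276 CPM in autonomy and 1280 CPM in turnover (0.997-fold, 0.965 to 1.03, or 0.878-fold on TMM factors). Pcna, the clamp itself, was at 494 CPM in autonomy and 509 CPM in turnover, and the loader subunits ran from 0.858-fold for Rfc1 to 1.24-fold for Rfc5. RPA was split by subunit. Rpa1 was at 209 CPM in autonomy and 160.1 CPM in turnover, 1.31-fold (1.20 to 1.42), and Rpa2 at 1.19-fold (1.09 to 1.30). Rpa3, the smallest subunit, was at 176 CPM in autonomy against 243 CPM in turnover, 0.725-fold (0.665 to 0.789), the lowest ratio of the 43 and 0.638-fold on TMM factors.

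Nucleotide supply genes summed to 3427 CPM in autonomy and 3038 CPM in turnover (1.13-fold, 1.11 to 1.15, or 0.994-fold on TMM factors). Dut, which removes dUTP and so keeps uracil out of DNA, was at 1266 CPM in autonomy and 996 CPM in turnover, 1.27-fold (1.23 to 1.31). The ribonucleotide reductase subunits Rrm2 (1.13-fold, 1.09 to 1.17) and Rrm1 (1.07-fold, 1.01 to 1.14) were slightly higher in autonomy and fell just under 1 on TMM factors. Thymidylate synthase Tyms was at 0.987-fold (0.934 to 1.04), and thymidine kinase Tk1, the salvage enzyme, was at 0.861-fold (0.793 to 0.935). Fen1, which trims Okazaki flaps, was at 1.18-fold (1.09 to 1.28) and Lig1, which seals the nicks, at 1.02-fold (0.953 to 1.10). Ung, the glycosylase that removes uracil from DNA, was at 113 CPM in autonomy and 56.6 CPM in turnover, 2.0005-fold (1.76 to 2.27). Tipin of the fork protection complex was at 0.873-fold (0.818 to 0.932), and the recombination factor Rad51ap1 at 0.914-fold (0.820 to 1.02).

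**Figure D2:**
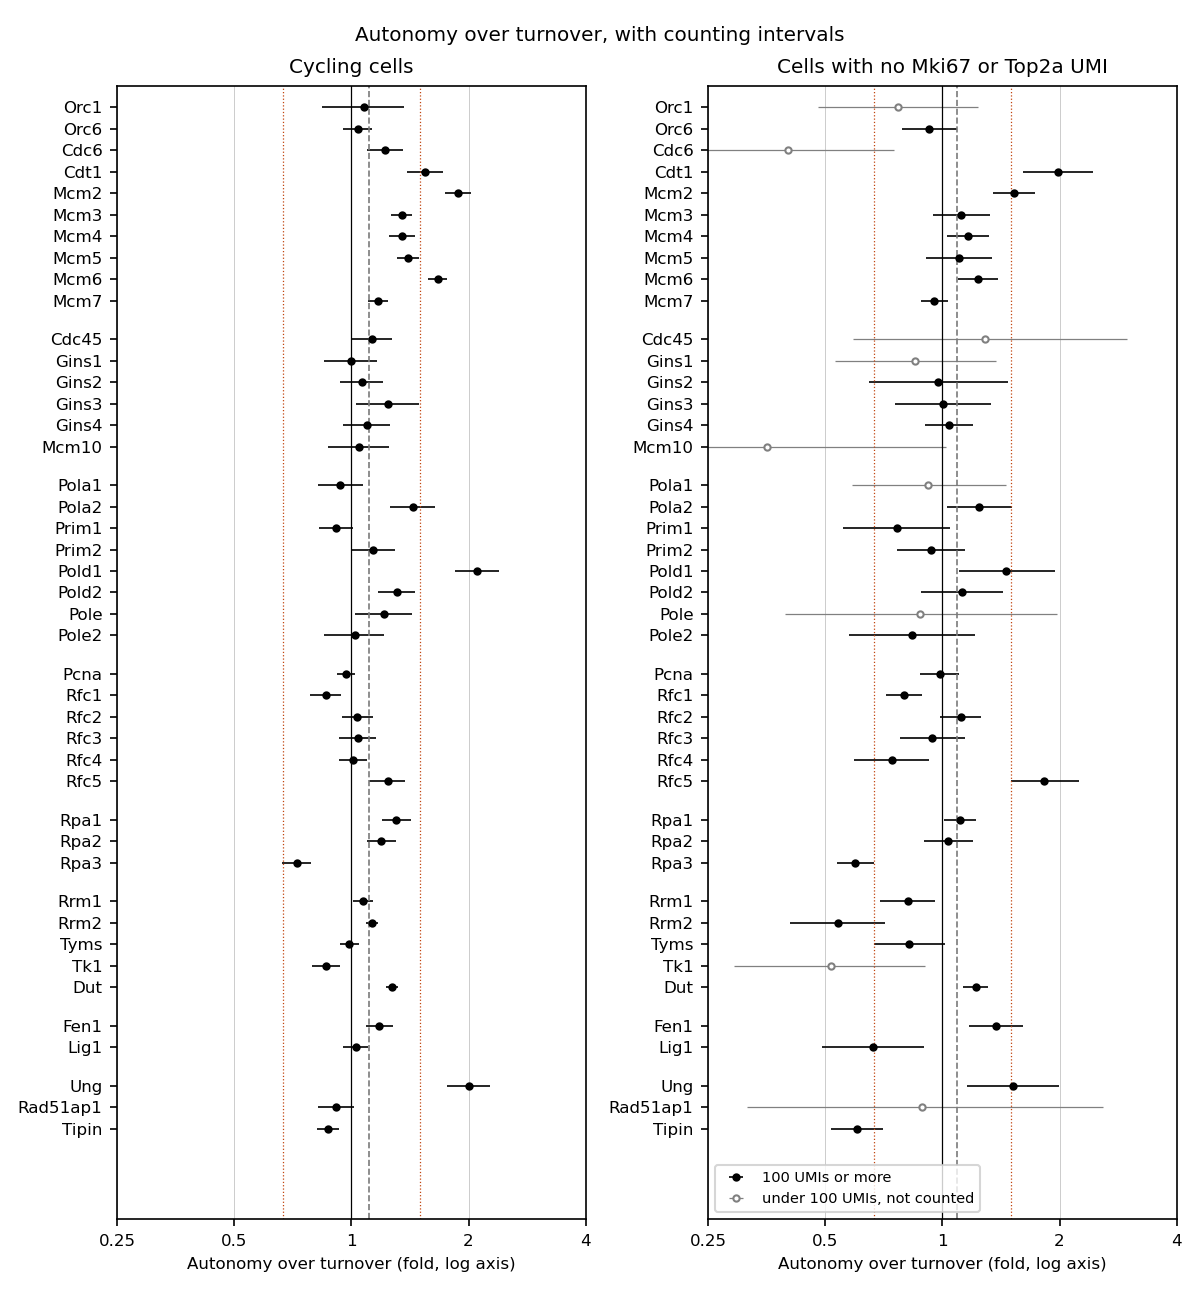
Ratio of the level in autonomy over that in turnover for each gene (log axis) with conditional exact 95% intervals of counting error, in cycling cells on the left and in cells with no Mki67 or Top2a UMI on the right, grouped by role. The solid line marks 1, the dashed line the median of all genes and the dotted lines 1.5-fold either way, and open grey points had under 100 UMIs. Pold1 at 2.10, Ung at 2.0005, Mcm2 at 1.88, Mcm6 at 1.67 and Cdt1 at 1.55 lie past the upper limit in cycling cells.

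Other genes of replication, 56 on a list that shares none with the 43, showed a like pattern. In cycling cells 55 passed the minimum, 8 were 1.5-fold or more higher in autonomy and none as much lower, which is 14.5% beside the background of 20.1%, and their median ratio was 1.14. E2f1, a transcription factor that drives entry into S phase, was at 59.9 CPM in autonomy and 17.9 CPM in turnover, 3.35-fold (2.75 to 4.09). E2f2 was at 1.64-fold (1.49 to 1.81). The others past the limit were the MCM-binding protein Mcmbp (2.33-fold), the fork factor Donson (2.24-fold), the clamp loader subunit Chtf18 (2.19-fold), the histone chaperone subunit Chaf1a (1.86-fold), Uhrf1, which reads hemimethylated DNA behind the fork (1.76-fold), and the CTP synthase Ctps (1.51-fold). On TMM factors 6 of the 8 stayed past 1.5-fold, without E2f2 and Ctps, which is 10.9% beside 12.7% of all genes.

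Cells within the cycling gate were spread over the cycle, and the 43 genes varied with that position in both libraries. Thinned to 5000 UMIs a cell, autonomy cycling cells had a median of 51 member UMIs (quartiles 36.5 and 66, extremes 1 and 111, 203 cells) and turnover cells a median of 45 (quartiles 32 and 58.25, extremes 0 and 115, 564 cells). Cells with many G2/M transcripts had few member transcripts, with Spearman correlations across cells of -0.49 in autonomy and -0.41 in turnover. Both counts come from the same 5000 UMIs of a cell, so this is a description.

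**Figure D3:**
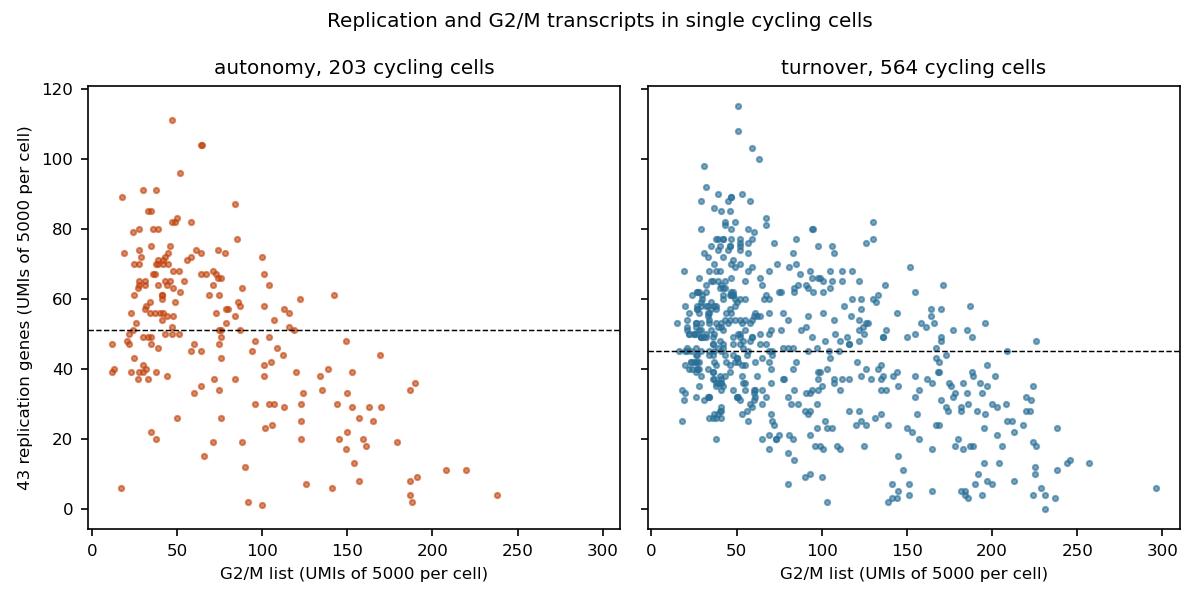
Each point is 1 cycling cell thinned to 5000 UMIs, with its UMIs of the G2/M list on the horizontal axis and of the 43 replication genes on the vertical axis, autonomy on the left and turnover on the right. Dashed lines mark the medians of 51 and 45 member UMIs, and the cells with the most G2/M UMIs lie mostly below them in both panels.

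When all cycling cells were ordered by the G2/M share of their UMIs and divided into 3 equal parts, autonomy put 81, 73 and 58 cells into the lowest, middle and highest part, and turnover 183, 190 and 205. The summed level of the 43 genes in autonomy was 11481 CPM in the lowest part, 10844 CPM in the middle and 6615 CPM in the highest. In turnover it was 9835, 9079.96 and 7091 CPM in the same order. Between the highest and the lowest part the level was lower for 39 of the 43 genes in autonomy and for 37 in turnover, with median ratios of 0.528 and 0.644. The share of all genes that were lower was not computed, so how far this is particular to the members is not known. From lowest to highest, median UMIs per cell were 18879, 17210 and 12075 in autonomy. In turnover they were 20994, 20915.5 and 9803, and the part of depth was not tested. Ung showed the steepest course, at 236, 32.8 and 1.26 CPM in autonomy and 126, 25.9 and 0.788 CPM in turnover from lowest to highest, the last values resting on 1 and 2 UMIs. Cdc6 was at 210.4, 99.8 and 39.0 CPM in autonomy and 178, 94.1 and 33.1 CPM in turnover. Both genes were thus highest in the cells that carried the fewest mitotic transcripts. Rrm2 ran the other way, at 987, 1279 and 1148 CPM in autonomy and 860, 978 and 1235 CPM in turnover, and Tyms, Rrm1 and Rad51ap1 were likewise not lower in the highest part in either library.

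The difference between the libraries also varied along this order. The summed ratio of autonomy over turnover was 1.17 (1.15 to 1.19) in the lowest part and 1.19 (1.17 to 1.22) in the middle one. In the highest part it was 0.933 (0.904 to 0.962). There 38 members passed, Mcm2 and Pold1 were the 2 that were 1.5-fold or more higher, and Gins2, Pola1, Rpa3 and Tk1 were the 4 that were as much lower, beside 15.2% and 3.76% of all genes. In the lowest and middle parts 4 members were higher in each and none lower, beside 19.1% and 19.6% of all genes higher and 2.42% and 2.76% lower. Mcm2 kept its excess throughout, at 1.96-fold, 1.57-fold and 1.84-fold, as did Pold1 at 2.09-fold, 2.05-fold and 2.17-fold. Most Ung UMIs lay in the lowest part, where its ratio was 1.87-fold (1.63 to 2.14). In the middle part it was 1.26-fold (0.875 to 1.80), on 46 UMIs in autonomy and 108 in turnover, and the 2 intervals overlap. Without the highest part the summed ratio over the remaining cycling cells was 1.19, and the same 5 genes were past 1.5-fold.

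By stage, most cycling cells were positive for Cd8 (4 or more UMIs of Cd8a and Cd8b1) and low in Cd4 (under 4 UMIs): 173 of the 212 in autonomy and 453 of the 578 in turnover. In these the members summed to 10457.5 CPM in autonomy and 9223 CPM in turnover, a ratio of 1.13 (1.12 to 1.15). All 43 passed, 4 were 1.5-fold or more higher (Mcm2, Mcm6, Pold1 and Ung) and none lower, beside 20.2% and 2.7% of all genes, and Cdt1 lay just under the limit at 1.496-fold. The other stages held fewer than 50 cells in 1 or both libraries and are given as values. Cells positive for both coreceptors, 30 in autonomy and 90 in turnover, had 8968 CPM and 7239.85 CPM. Cd8-negative cells, 9 in autonomy and 35 in turnover, had 8502 CPM and 7829 CPM. Within each library the Cd8-positive Cd4-low cells thus had the highest summed level of the 3 stages. The G2/M list moved with stage too, at 20958 CPM in autonomy and 24261 CPM in turnover cells with both coreceptors, 13368 and 14153 CPM in Cd8-positive Cd4-low cells, and 9616 and 10279 CPM in Cd8-negative cells, and its part in the order was not tested. The autonomy value for both coreceptors included 9 cells without a productive T cell receptor beta chain at 5522 CPM, while the 21 with one were at 10172 CPM. Outside the gate, 11 autonomy and 64 turnover cells with Il2ra and no Cd8 had 2396 and 1645 CPM, and cells with S1pr1, a gene of mature thymocytes, had 1291 CPM over 64 cells in autonomy and 1184 CPM over 2 cells in turnover.

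**Figure D4:**
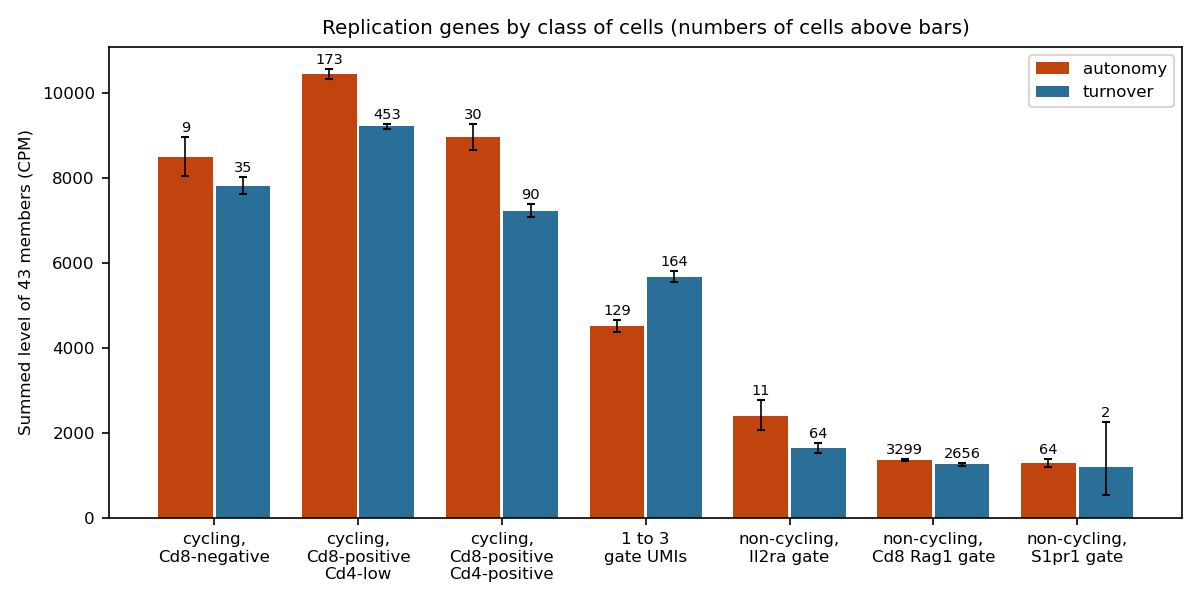
Summed level of the 43 genes in CPM for 7 classes of cells, autonomy in orange left of turnover in blue, with exact Poisson 95% intervals of counting error and the number of cells above each bar. The 3 cycling stages stand between 7239.85 and 10457.5 CPM, cells with 1 to 3 Mki67 and Top2a UMIs at 4513 CPM in autonomy and 5684 CPM in turnover, and non-cycling classes at 2396 CPM or less.

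The summed level of the replication genes was slightly lower in cycling cells without a productive TRB chain than in those with one, in both libraries. No productive TRB contig was found for 73 of 212 cycling autonomy cells (34.4%, 28.1 to 41.2) and for 34 of 578 turnover cells (5.88%, 4.11 to 8.12). Of these, 66 autonomy and 31 turnover cells had only TRB contigs not marked productive. The other 7 and 3 had no TRB contig, with medians of 2820 and 1949 UMIs, and whether a chain was missed in them was not tested. In autonomy the members summed to 10031 CPM without and 10323 CPM with a productive chain, a ratio of 0.972 (0.950 to 0.993), or 0.912 on TMM factors. Of 42 members that passed, none was 1.5-fold or more higher or lower, beside 3.69% and 2.35% of all genes. Prim1 had the highest ratio, at 173 CPM without and 127 CPM with a productive chain (1.36-fold, 1.13 to 1.63), and Tyms was at 1.22-fold (1.10 to 1.35). Mcm2 to Mcm7 all lay below 1, with a summed level of 2087 CPM without and 2370 CPM with a productive chain (0.881-fold, 0.839 to 0.924), and Pcna was at 0.814-fold (0.731 to 0.905). The G2/M list was at 1.14-fold in the same cells (1.12 to 1.16), and cells without a productive chain had a median of 12383 UMIs against 17447 in those with one. The part of either in these ratios was not tested. By stage the direction was not the same: among Cd8-positive Cd4-low cells the summed level was 10728 CPM in 56 cells without and 10364 CPM in 117 cells with a productive chain, and among cells with both coreceptors it ran the other way, as given above by stage.

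In turnover the members summed to 8399.8 CPM without and 8901 CPM with a productive chain, 0.944-fold (0.913 to 0.975), or 0.869-fold on TMM factors. The G2/M list was at 1.14-fold on plain totals. Orc1 was 1.5-fold or more higher (1.55-fold, 0.874 to 2.58) and Gins1 lower (0.614-fold, 0.348 to 1.005), each on 16 UMIs in the cells without a productive chain, beside 10.4% and 9.3% of all genes. On TMM factors Orc1 was at 1.43-fold, so that no member was higher, and Gins1 (0.565-fold) and Rpa1 (0.626-fold) were the 2 lower, beside 6.91% and 12.7% of all genes. On plain totals the summed ratio of autonomy over turnover was above 1 in both TRB states, and TMM factors were not computed for these comparisons. Over all cycling cells that ratio was 1.15 on plain totals and 1.02 on TMM factors. With a productive chain the summed ratio was 1.16 (1.14 to 1.18), with the same 5 genes past 1.5-fold and none lower, beside 18.7% and 3.76% of all genes. Without one it was 1.19 (1.15 to 1.24), where Mcm2 (2.34-fold), Pold1 (1.93-fold), Cdt1 (1.83-fold), Rpa1 (1.71-fold), Ung (1.55-fold) and Pola2 (1.53-fold) were the 6 of 37 past 1.5-fold and none was lower, beside 16.9% and 3.12% of all genes.

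**Figure D5:**
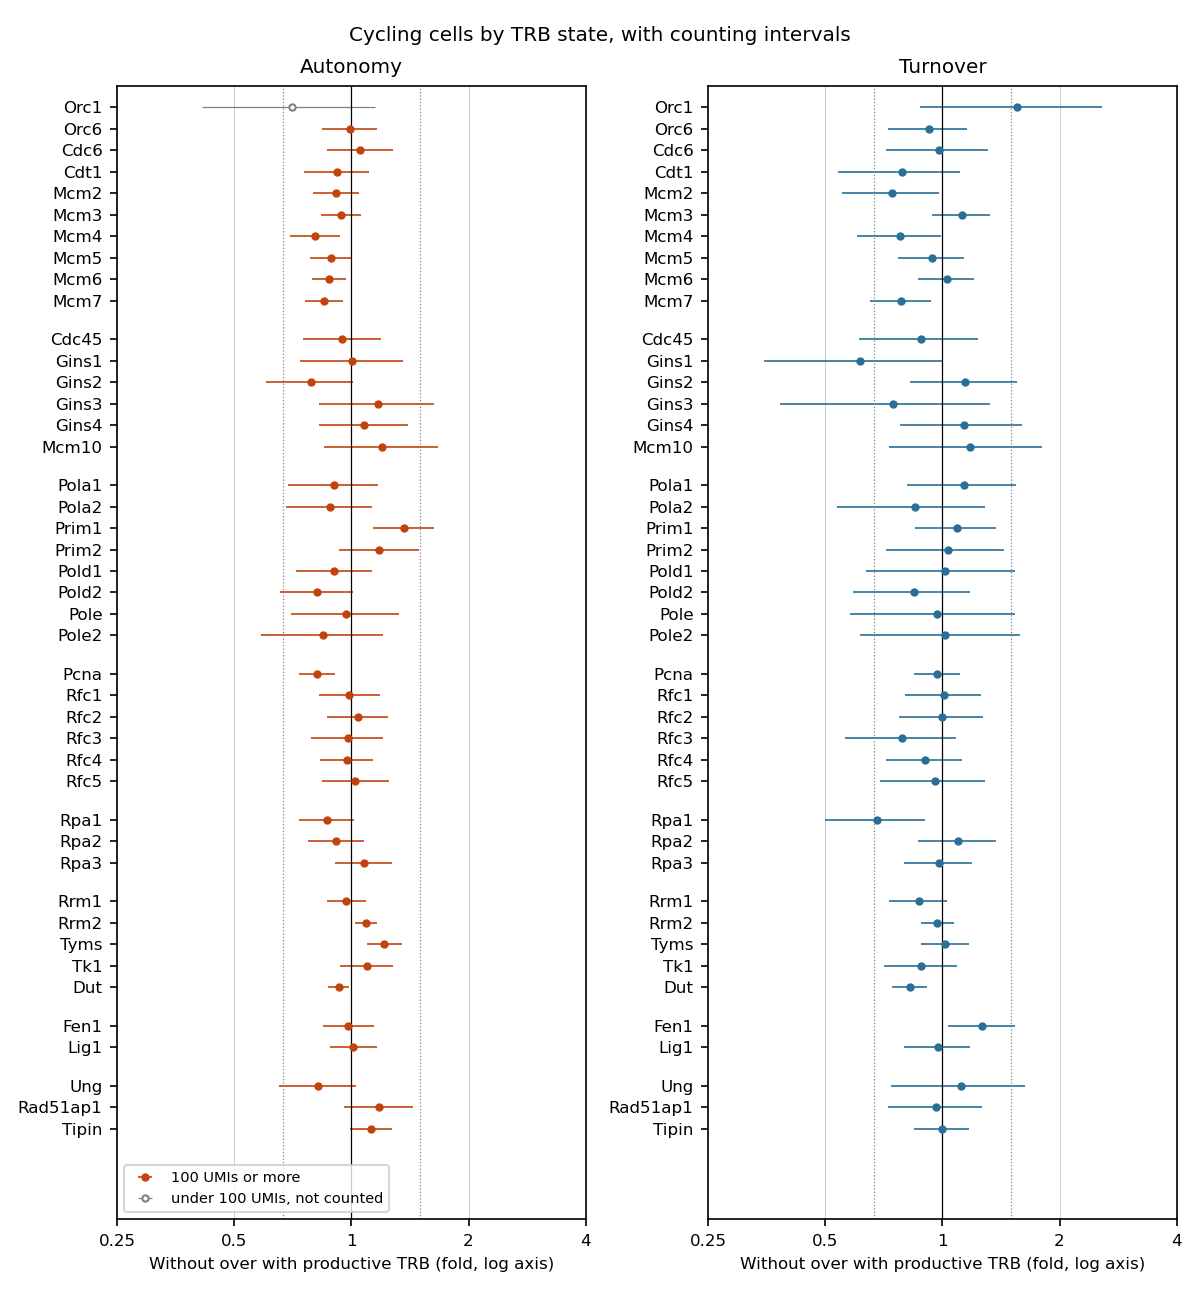
Ratio of the level in cycling cells without over those with a productive TRB chain for each gene (log axis), autonomy on the left and turnover on the right, with conditional exact 95% intervals of counting error and dotted lines at 1.5-fold either way. In autonomy every gene with 100 UMIs or more lies inside the limits and Mcm2 to Mcm7 sit together left of 1, and the wider intervals in turnover rest on 34 cells without a productive chain.

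Cells of 1 clone share an origin and are not independent, and clones were more common among the cycling cells of autonomy. Of cycling cells with a productive TRB chain, 57.6% in autonomy and 7.54% in turnover shared their leading chain with another cycling cell. Grouped by leading chain, the 8 autonomy clones with 5 or more cycling cells, of 5 to 16 cells each, had member levels of 9301 to 13219 CPM, and the remaining 79 productive cells had 10250.0 CPM. Such grouping can split a clone with more than 1 productive chain. The chain found in the most autonomy cells, leading or not, was in 191 cells, 6 of them cycling, and does not appear whole among the 8. The 3 clones with the most cycling cells lay at 10298, 9301 and 9714 CPM, above the turnover level of 8879.7 CPM over all its cycling cells. With 1 cell kept per productive chain in both libraries the summed ratio of autonomy over turnover was 1.09, and Mcm2, Mcm6, Pold1 and Ung were at 1.74-fold, 1.59-fold, 2.001-fold and 1.993-fold, while Cdt1 was at 1.46-fold. The cell kept was the first barcode of its chain among all cells, cycling or not. All cells without a productive chain stayed in, so their share of the autonomy cycling cells rose, and clones among them were not thinned out.

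Outside the gate the 43 genes were low but unevenly so. All 43 were 1.5-fold or more higher in cycling than in non-cycling cells in both libraries, beside 15.6% of all genes in autonomy and 16.1% in turnover, where 48.5% and 48.2% were as much lower. The gate picks cells by proliferation genes, so this is a check of it and not a finding. As a share of its level in cycling cells, the median member stood at 12.7% in non-cycling autonomy cells and 15.5% in non-cycling turnover cells, whereas the median of all genes was at 146% and 145%. The gene with the lowest share was Rrm2 in autonomy at 0.705%, beside 1.48% in turnover, and Rad51ap1 in turnover at 0.768%, beside 0.745% in autonomy. Tk1, Cdc6, Mcm10 and Cdc45 were under 4% in both. At the other end Gins4 kept 56.9% of its level in autonomy and 59.9% in turnover, and Rpa1 47.1% and 55.4%. Members of 1 complex thus differed, Gins2 being at 5.70% and 6.23%, and Pole at 2.62% and 3.63% beside 12.7% and 15.5% for its partner Pole2.

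In non-cycling cells the summed level was 1362 CPM in autonomy and 1327 CPM in turnover, a ratio of 1.03 (1.002 to 1.05), or 0.947 on TMM factors. Of the 43, 34 passed the minimum of 100 UMIs, 4 were 1.5-fold or more higher and 4 lower, beside 21.3% and 4.3% of all genes. Cdt1 was at 31.2 CPM in autonomy and 15.7 CPM in turnover (1.98-fold, 1.61 to 2.44). Rfc5 was at 30.8 CPM in autonomy and 16.8 CPM in turnover (1.83-fold, 1.497 to 2.24), Mcm2 at 71.3 and 46.7 CPM (1.53-fold, 1.35 to 1.73) and Ung at 15.1 and 9.96 CPM (1.52-fold, 1.16 to 1.999). On TMM factors Cdt1 (1.83-fold) and Rfc5 (1.69-fold) stayed past 1.5-fold, while Mcm2 (1.41-fold) and Ung (1.40-fold) did not, beside 17% of all genes higher and 6.75% lower. Cdt1, Mcm2 and Ung thus had ratios above 1 on both sides of the gate under either scaling, but none of the 3 passed 1.5-fold on both sides on TMM factors. Ratios above 1 on both sides were not particular to these 3. Pold1, at 13.6 CPM in autonomy and 9.34 CPM in turnover outside the gate, and Mcm6, at 68.2 and 55.2 CPM, were among the others. On TMM factors 15 of the 34 members lay above 1 outside the gate. The lower ones were Rrm2 at 7.94 CPM in autonomy and 14.8 CPM in turnover (0.538-fold, 0.405 to 0.713, on 91 and 120 UMIs), Rpa3 at 55.5 and 92.8 CPM (0.598-fold), Tipin at 27.0 and 44.8 CPM (0.604-fold) and Lig1 at 7.68 and 11.6 CPM (0.664-fold). Whether the few Rrm2 UMIs came from these cells or from free RNA was not tested, and cycling cells, in which Rrm2 was abundant, held 23.6% of all UMIs in autonomy and 52.8% in turnover. Other markers differed in the same non-cycling cells. The DN3-like list summed to 714 CPM in autonomy and 264 CPM in turnover. Of its 5 genes 3 were 1.5-fold or more higher in autonomy and 1, Ifitm2, was lower, at 1.57 and 18.1 CPM. Dendritic markers summed to 143 and 30.2 CPM, and the 4 gamma-delta markers, all lower in autonomy, to 26.5 and 173 CPM. The part of these marker lists in the members' ratios was not tested. Macrophage markers summed to 164 CPM in non-cycling autonomy cells and 20.4 CPM in non-cycling turnover cells, and without cells that held 2 or more of their UMIs the members' summed ratio was 1.03. Within resting cells with Cd8 and Rag1, 3299 in autonomy and 2656 in turnover, 32 members passed, 5 were higher (Cdt1 2.07-fold, Rfc5 1.89-fold, Pold1 1.87-fold, Ung 1.74-fold and Mcm2 1.67-fold) and 3 lower (Lig1, Rrm2 and Rpa3), beside 22.6% and 3.97% of all genes.

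Cells with 1 to 3 Mki67 and Top2a UMIs went the other way, with 4513 CPM in autonomy and 5684 CPM in turnover (0.794-fold, 0.765 to 0.824). Of 34 members that passed, Pold1 was higher (1.76-fold, 1.18 to 2.66) and 8 were lower, among them Rrm2 (0.522-fold), Tipin (0.565-fold) and Rfc3 (0.567-fold), beside 19.6% and 4.98% of all genes. Thinned to 1000 UMIs a cell, 6 or more member UMIs were found in 17.1% of these cells in autonomy (11.0 to 24.7) and 24.4% in turnover (18.0 to 31.7). The same count was reached by 81.1% of cycling cells in autonomy and 76.0% in turnover, and by 0.368% and 0.631% of non-cycling cells. These intermediate cells had medians of 4361 UMIs in autonomy and 5177.5 in turnover, far below the cycling cells.

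Over whole libraries the members were lower in autonomy, where fewer cells were cycling. Such sums mix the share of dividing cells with the level within each class of cells. In cycling cells the summed level was 10241.5 CPM in autonomy and 8879.7 CPM in turnover. It was 1362 and 1327 CPM in non-cycling cells, and 4513 and 5684 CPM in cells with 1 to 3 gate UMIs. The parts of share and level in the whole-library ratio were not tested. Over all cells the members summed to 3646 CPM in autonomy and 5604 CPM in turnover (0.651-fold, 0.644 to 0.657), and 23 of 43 were 1.5-fold or more lower and none higher, beside 7.08% and 31.8% of all genes. On TMM factors, which moved the ratios down by 0.29 on the log2 scale, 33 were lower and none higher, beside 15.9% and 18.1% of all genes. Cycling cells held 66.4% of the member UMIs in autonomy and 83.6% in turnover. Tk1 was at 50.7 CPM in autonomy and 127 CPM in turnover (0.399-fold, 0.369 to 0.432), and Rad51ap1 at 29.6 and 70.7 CPM (0.418-fold). Pold1 (1.16-fold, 1.04 to 1.30) and Mcm2 (1.16-fold, 1.09 to 1.23) still had ratios above 1, which on TMM factors were below it.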

How the data were processed

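Single-cell 5′ RNA counts and V(D)J contigs were deposited for 1 library of each kind per condition. The authors' expression tables hold raw UMI counts per gene and barcode, made with Cell Ranger 3.0.2 on mm10, and Seurat 3.1.3.9002 is also named, per the submitters' processing notes. Barcodes with 1000 or more UMIs were kept, and no doublet caller was run. UMIs were summed per library and cell class and divided by the total UMIs of those cells (CPM). Ratios have conditional exact binomial 95% intervals, CPM exact Poisson ones and shares exact (Clopper-Pearson) binomial ones, all of counting error only. A gene passed with 100 UMIs over both sides and was called at 1.5-fold. A cell had a productive TRB chain where a deposited contig was marked so. In each comparison the members past 1.5-fold and those furthest from 1 in each role were named, and other replication genes past 1.5-fold. The members and all lists were chosen with earlier results of these data known. On simulated counts for the cycling comparison, 100% of changed genes were called and 95.3% of intervals held the true ratio over 7780 genes. The changed genes were given ratios far past 1.5-fold, and counts were drawn with the counting error that the intervals assume. This checked the code only, and cannot speak to calls near 1.5-fold or to spread between cells, clones or animals. Sums and intervals used pandas 2.3.3, scipy 1.17.1 and numpy 2.4.6 under Python 3.11.15, and TMM factors edgeR 4.0.16 under R 4.3.3.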

Additional observations from a re-analysis of the deposited data

Results flagged for a closer look

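Rrm2, the regulatory subunit of ribonucleotide reductase, had ratios of autonomy over turnover on opposite sides of 1 inside and outside the cycling gate on plain totals. In cycling cells it was at 1127 CPM in autonomy and 996 CPM in turnover, a ratio of 1.13, which was 0.997 on TMM factors and 0.930 on plain totals in the highest part of the G2/M order. In cells with no Mki67 or Top2a UMI it was at 7.94 CPM in autonomy and 14.8 CPM in turnover, a ratio of 0.538, or 0.496 on TMM factors. These last values rest on 91 UMIs in autonomy and 120 in turnover, or 0.705% and 1.48% of the level in cycling cells, and a share from free RNA was not measured. With 1 library a condition the difference between these ratios was not tested.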

How the results depend on the processing

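With 1 library a condition the limits are of composition and depth, since no replicate spread exists and intervals cover counting error only. No paired analysis was possible because each condition had 1 library and no test was made. Of 120 values that the alternatives gave for the main results, 74 stayed within the main interval or, for counts, within 1.5 times the main count, and 46 did not and are given here. On TMM factors the cycling sums of helicase activation (0.959), nucleotide supply (0.994), single-strand binding (0.902) and flap and nick processing (0.961) were below 1 and those on plain totals above it, and that of the uracil, fork and recombination genes was 0.881. Alternatives were plain choices made with earlier results known, and 3 of them (productive TRB only, shared barcodes left out, and the upper part of the G2/M order left out) were chosen after seeing these data. The cause of each shift below was not tested.

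The summed ratio of autonomy over turnover in cycling cells was 1.016 with TMM factors, 1.121 and 1.17 with a gate of 2 or 8 UMIs, 1.137 with a gate of 300 CPM, 1.111 with cells weighted equally, 1.106 thinned to 5000 UMIs, 1.045 without the 4% of cells with the most UMIs, 1.14 without cells with 2 or more productive TRB chains, 1.092 with 1 cell per chain and 1.185 without the upper part of the G2/M order. Members higher were 3 with TMM, beside 12.7% of all genes, and 2 at a 2-fold limit, beside 6.78%. Without the 4% of cells with the most UMIs they were 2, beside 27.2%. Members lower were 1 with TMM, beside 6.68% of all genes, and 1 without those cells, beside 5.87%. Mcm2 and Pold1 stayed at 1.5-fold or more under 17 of 17 alternatives, Ung under 16, Mcm6 under 15 and Cdt1 under 11.

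Over all cells the summed ratio was 0.5308 with TMM, 0.757 with cells weighted equally, 0.764 thinned to 1000 UMIs, 0.6125 with a minimum of 2000 UMIs, 0.6579 without cells with macrophage transcripts, 0.4129 without the 4% of cells with the most UMIs and 0.6599 in cells with Y-linked transcripts and no Xist, with 14 members lower when thinned, 35 without the 4% and 33 with TMM. In non-cycling cells it was 0.9473 with TMM, 1.106 with cells weighted equally, 1.101 thinned, 0.9911 with the 2000 minimum and 0.9585 in the Y-linked cells.

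Without over with a productive TRB chain, autonomy gave 0.9123 with TMM and 0.9988 with a gate of 8, and turnover 0.8692 with TMM, 0.9083 with a gate of 2 and 0.9026 with cells weighted equally. The percent of cells cycling in autonomy was 5.641 and 3.942 with gates of 2 and 8, 6.18 with the 2000 minimum, 1.912 without the 4%, 5.915 with 1 cell per chain and 5.675 in the Y-linked cells. In turnover it was 15.05 and 11.59, 24.35 with the 2000 minimum, 10.25 without the 4% and 18.46 in the Y-linked cells. The thinned share in turnover was 11.12. It counted cells with any Mki67 or Top2a UMI left after thinning, so it is not the main gate at equal depth.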
